A study of Rattus norvegicus with 88 samples.

Results

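Expression of 6 genes of GABA and glutamate transmission was followed in orbitofrontal cortex from heterogeneous stock (HS) rats, which are outbred animals derived from crosses of inbred founder strains. The 6 genes were chosen by name and by Ensembl identifier, with no measured value in the rule. They were Gad1 (ENSRNOG00000000007), Gad2 (ENSRNOG00000018200), Slc32a1 (ENSRNOG00000015393), Pvalb (ENSRNOG00000006471), Slc17a7 (ENSRNOG00000020650) and Slc17a6 (ENSRNOG00000016147), and all 6 had a row in a table of 17123 genes. RNA-Seq libraries came from 80 rats, 41 males and 39 females, each rat giving 1 library from bilateral tissue dissected out of frozen sections. The numbers of males and females given in the labels differ from those in the methods of the study, the labels were used, and the sex of the rats was not checked against the data. The rats were group housed and had received no drug or behavioural test, so sex and the rat batch number in the labels were the available groupings. There were 11 males with 4 females in batch 2, 10 with 12 in batch 3, 12 with 14 in batch 4 and 8 with 8 in batch 6, while batch 5 was a single female. What a rat batch shared (a shipment, a litter, a dissection day) was not given in the labels.

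Inhibitory cortical neurons make GABA from glutamate and load it into synaptic vesicles, while excitatory neurons load glutamate itself. Gad1 and Gad2 encode the glutamate decarboxylases that make GABA, and Slc32a1 encodes the vesicular GABA transporter. Pvalb encodes parvalbumin, a calcium buffer of fast-spiking interneurons. Slc17a7 and Slc17a6 encode vesicular glutamate transporters, the former typical of cortical pyramidal neurons and the latter best known from thalamus and other subcortical regions. In bulk tissue, fewer cells of a type and less RNA per cell cannot be told apart.

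Values were log2(normalized count + 1), where the authors scaled each library by its upper quartile. Depth, recovered from the spacing of the normalized counts, ran from 5670000 to 25600000 reads per library with a median of 18100000. The table paired no identifiers with gene symbols and gave no transcript lengths, so other cell type markers and the wider GABA and glutamate pathways were not counted, and levels were not ranked between genes. The order of the libraries in the table broke into 3 runs of ascending rat identifiers. The first held 21 libraries of batches 2 and 3, the second 13 of the same batches, and the last 46, of which 3 were from batch 3 and the others from batches 4, 5 and 6. What the runs stand for was not given in the sources used here, and their values are set beside the batch results.

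The bases before a gene are shown for the 4 of the 6 where the annotation left enough of them free of any transcript of that gene. Only 58 such bases lay before Gad1 and 0 before Pvalb, so these are not shown. The 4 include the most and least variable members (Slc17a6 and Slc17a7). They also include Slc32a1 and Slc17a7, which varied together among rats as deposited (r = 0.44) but did not pass after quantile normalization (r = 0.15). The sequences are from RefSeq on the GRCr8 build, plus strand, not the build of the expression table, and all 6 symbols matched there. Capitals mark GGGCGG or its reverse complement CCGCCC, the GC box, and TATAAA on either strand, which was searched as well. The Gad2 window is chr17:89671468-89671717, that of Slc32a1 is chr3:167686995-167687244, that of Slc17a7 is chr1:104785955-104786171 and that of Slc17a6 is chr1:110348197-110348446.
Gad2: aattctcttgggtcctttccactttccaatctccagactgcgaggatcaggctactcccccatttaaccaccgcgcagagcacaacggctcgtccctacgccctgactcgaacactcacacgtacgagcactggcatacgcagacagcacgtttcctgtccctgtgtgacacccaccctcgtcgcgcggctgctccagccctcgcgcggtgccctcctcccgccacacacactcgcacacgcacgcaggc
Slc32a1: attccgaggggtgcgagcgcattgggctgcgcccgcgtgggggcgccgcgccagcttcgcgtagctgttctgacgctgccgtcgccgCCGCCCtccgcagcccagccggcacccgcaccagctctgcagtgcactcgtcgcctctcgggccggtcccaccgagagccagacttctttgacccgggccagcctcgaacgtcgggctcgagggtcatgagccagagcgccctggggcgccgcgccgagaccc
Slc17a7: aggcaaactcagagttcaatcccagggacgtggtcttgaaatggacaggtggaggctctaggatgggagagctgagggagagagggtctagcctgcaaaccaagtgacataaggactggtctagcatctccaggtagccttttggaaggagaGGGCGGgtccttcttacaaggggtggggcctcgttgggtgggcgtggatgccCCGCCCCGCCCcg
Slc17a6: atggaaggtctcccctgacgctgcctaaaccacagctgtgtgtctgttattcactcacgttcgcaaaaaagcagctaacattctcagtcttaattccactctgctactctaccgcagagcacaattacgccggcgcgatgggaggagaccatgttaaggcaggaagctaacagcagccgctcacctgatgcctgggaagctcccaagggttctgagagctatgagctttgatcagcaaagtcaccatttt
Slc32a1 held 1 GC box and Slc17a7 held 3, of which 2 overlap by 1 base, whereas Gad2 and Slc17a6 held 0. TATAAA occurred in 0 of the 4. For the genes not shown, the 250 bases before the start lie partly or wholly inside the annotated gene. There Gad1 held 1 GC box and 1 TATAAA, and Pvalb 1 GC box and 0 TATAAA. Among 33469 promoters in the RefSeq table, 30.5% held a GC box and 12.9% a TATAAA within the 250 bases before the start. The GC share was 73.6% for Slc32a1, 62.0% for Gad2, 59.4% for the 217 bases of Slc17a7 and 50.8% for Slc17a6, against a median of 51.2% over all promoters. These are counts of letters in these windows and say nothing of which factors bind there.

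Of the 6 genes, 5 stayed within a 2.77-fold span over the 80 rats, and Slc17a6 went far beyond it. Slc17a7 ran from 29756 to 41916 normalized counts with a median of 35103, so the highest rat stood 1.41 times above the lowest. Gad1 ran from 4593 to 7071 around a median of 5370, and Gad2 from 4636 to 6922 around 5678, spans of 1.54-fold and 1.49-fold. These 3 genes thus stayed within a narrow band in every rat. Slc32a1 ran from 852 to 1992 with a median of 1406, and Pvalb from 880 to 2439 with a median of 1489, spans of 2.34-fold and 2.77-fold. Slc17a6 ran from 99 to 824 with a median of 324, an 8.32-fold span. On the log2 scale the mean ± SD over the 80 rats was 15.12 ± 0.11 for Slc17a7, 12.42 ± 0.11 for Gad1, 12.46 ± 0.14 for Gad2, 10.40 ± 0.28 for Slc32a1, 10.54 ± 0.23 for Pvalb and 8.24 ± 0.80 for Slc17a6.

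To describe variation among rats of the same sex and batch, both were removed and the residual SD was ranked among the 14803 genes with a mean log2 value of at least 3. The median residual SD of those genes was 0.203, with quartiles of 0.143 and 0.339. Slc17a7 (0.0989) lay at percentile 5.94, Gad1 (0.104) at percentile 7.76 and Gad2 (0.134) at percentile 20.5, all below the lower quartile. Slc32a1 (0.180) and Pvalb (0.194) lay just under the median, at percentiles 41.8 and 47.2. Slc17a6 (0.790) lay at percentile 96.0, with 584 genes above it. The SD that counting of reads alone would give was 0.0957 for Slc17a6, 0.0416 for Slc32a1, 0.0397 for Pvalb, 0.0207 for Gad1, 0.0205 for Gad2 and 0.00808 for Slc17a7, in each case well under the residual SD.

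The wide spread of Slc17a6 was found inside every batch. The quartiles over the 80 rats were 212 and 442 normalized counts. Of the 80 rats, 15 lay under 0.5 times the median and 5 above 2 times the median, whereas 0 rats did so for any of the other 5 genes. The lowest values were 99 in female 30 of batch 3 and female 24 of batch 6, 105 in female 5 of batch 3 and 106 in male 17 of batch 4. The highest were 824 in male 30 and 801 in male 22, both of batch 6, 741 in female 33 of batch 3 and 730 in female 22 of batch 6. Batches 3 and 6 therefore each contributed rats to both ends. Batches 2, 3, 4 and 6 had log2 SDs of 0.68, 0.80, 0.62 and 1.06. In the same 8 rats Slc17a7 stayed between 32240 and 40984 normalized counts.

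**Figure D1:**
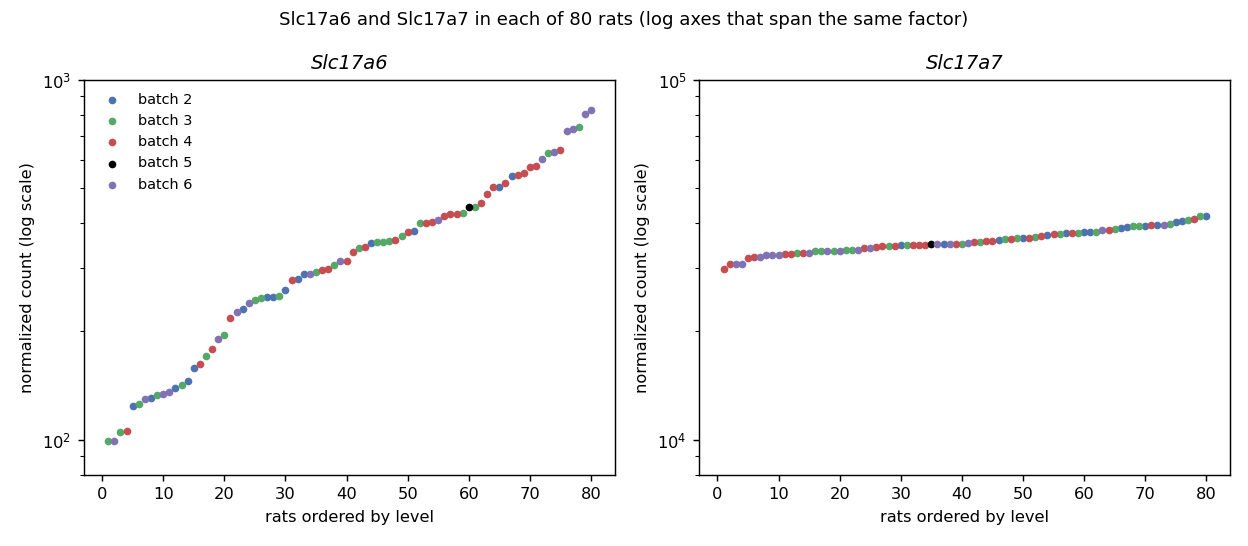
Normalized counts of Slc17a6 (left) and Slc17a7 (right) in each of 80 rats, ordered by level, on log axes that span the same factor; each point is 1 rat, coloured by rat batch. Slc17a6 climbs from 99 to 824 and Slc17a7 from 29756 to 41916.

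Differences between males and females were small for all 6 genes. With rat batch in the model, 0 of the 6 passed the limma test at an adjusted p of 0.05, where 0.117% of all genes (20 of 17123) did. Without adjustment, 0 of the 6 and 1223 of all genes had a p under 0.05. The male minus female log2 difference was -0.06 for Pvalb (SE 0.04, limma adjusted p = 0.851), -0.04 for Gad2 (SE 0.03, adjusted p = 0.880), 0.02 for Slc17a7 (SE 0.02, adjusted p = 0.893), -0.02 for Gad1 (SE 0.02, adjusted p = 0.918), -0.02 for Slc32a1 (SE 0.04, adjusted p = 0.965) and -0.07 for Slc17a6 (SE 0.18, adjusted p = 0.971). The SE of Slc17a6 leaves room for a sex difference far larger than could hide in the other 5. The test of whether the sex difference varied between batches called 0 of the 6 and 0% of all genes, with a smallest limma adjusted p of 0.102 over all genes, while 451 of 17123 genes had an unadjusted p under 0.05. The unadjusted p of the 6 genes ran from 0.408 to 0.963.

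Rat batch, in contrast, went with clear differences. The limma F test across batches 2, 3, 4 and 6 called 4 of the 6 genes (Slc32a1, Pvalb, Slc17a7 and Gad1), but it also called 64.7% of all genes, so the share among the 6 was close to that of the table. Slc32a1 spanned 0.56 on the log2 scale between its highest and lowest batch (limma adjusted p = 4.47e-14), above the median span of 0.316 over all genes. Pvalb spanned 0.30 (adjusted p = 1.36e-05), Slc17a7 0.16 (adjusted p = 0.000315) and Gad1 0.14 (adjusted p = 0.000903), all under that median. Gad2 spanned 0.09 (adjusted p = 0.230). Slc17a6 also spanned 0.56, the same distance as Slc32a1, but its spread among rats was so large that the limma test did not call it (adjusted p = 0.124). Batch accounted for 60.2% of the variance of Slc32a1, 30.5% of Pvalb, 26.4% of Slc17a7, 21.7% of Gad1, 8.80% of Slc17a6 and 7.37% of Gad2. The median was 22.1% over the 14803 genes with a mean log2 value of at least 3.

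Slc32a1, the vesicular GABA transporter, stepped down from batches 2 and 3 to batch 4 and again to batch 6. How far these steps went with the runs of library columns is given below. Its lowest, median and highest normalized counts were 1200, 1589 and 1908 in batch 2, and 1156, 1580 and 1992 in batch 3. They were 852, 1268 and 1657 in batch 4, and 941, 1071 and 1407 in batch 6. Ranges overlapped between every pair of batches, yet 15 of 16 rats of batch 6 lay below the lowest rat of batch 2. Batch 6 was lower than batch 2 by 0.56 on the log2 scale (log2 difference -0.56, SE 0.06, limma adjusted p = 8.47e-12), in a comparison that called 53.8% of genes. It was also lower than batch 3 (-0.52, SE 0.06, adjusted p = 9.32e-12, 50.9% of genes called) and batch 4 (-0.23, SE 0.06, adjusted p = 0.00391, 13.6% called). The limma test did not call a difference between batches 2 and 3 (-0.04, SE 0.06, adjusted p = 0.728, 9.79% of genes called).

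Pvalb, Slc17a7 and Gad1 followed other orders. Pvalb was highest in batch 3 (10.69 ± 0.20 log2, SD, n = 22) and batch 2 (10.61 ± 0.21, n = 15) and lowest in batch 4 (10.39 ± 0.20, n = 26), with batch 6 between (10.50 ± 0.18, n = 16). The fall from batch 3 to batch 4 was the largest called for this gene (-0.30, SE 0.06, limma adjusted p = 5.23e-06), with 42.9% of genes called. Slc17a7 declined from 15.22 ± 0.08 in batch 2 through 15.15 ± 0.10 and 15.09 ± 0.11 to 15.05 ± 0.10 in batch 6, and batch 6 was lower than batch 2 by the limma test (-0.16, SE 0.04, adjusted p = 0.000113). Gad1 was highest in batch 3 (12.50 ± 0.12) and lower in batch 4 (-0.11, SE 0.03, limma adjusted p = 0.00138) and batch 6 (-0.14, SE 0.03, adjusted p = 0.000629). Across the 6 pairs of batches, the number of the 6 genes called is given with the share of all genes called. That number was 0 between 2 and 3 (9.79% of all genes), 3 between 2 and 4 (48.6%) and 2 between 2 and 6 (53.8%). For the other pairs it was 3 between 3 and 4 (42.9%), 4 between 3 and 6 (50.9%) and 1 between 4 and 6 (13.6%). With libraries scaled as deposited, every one of these called differences was lower in the higher-numbered batch. Of all genes, 24.1%, 26.6%, 21.6%, 25.1% and 7.49% were both called and lower in that batch in the last 5 comparisons. Between batches 2 and 4, for instance, 4126 of the 8314 genes called were lower in batch 4. The pairs share rats.

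These small batch differences of Gad1, Gad2 and Slc17a7 depended on how libraries were scaled. With the libraries quantile normalized instead, the limma F test no longer called Gad1 (span 0.07, adjusted p = 0.142) or Slc17a7 (span 0.08, adjusted p = 0.0602), and it called Gad2 (span 0.16, adjusted p = 0.00416), which was then higher in batches 4 and 6 than in batch 2 (0.15 and 0.16). The Slc17a7 difference between batches 3 and 4 turned from -0.06, not called, to 0.08, called (limma adjusted p = 0.0280, 42.4% of genes called). Slc32a1 kept its steps under that scaling, at -0.54 between batches 2 and 6.

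**Figure D2:**
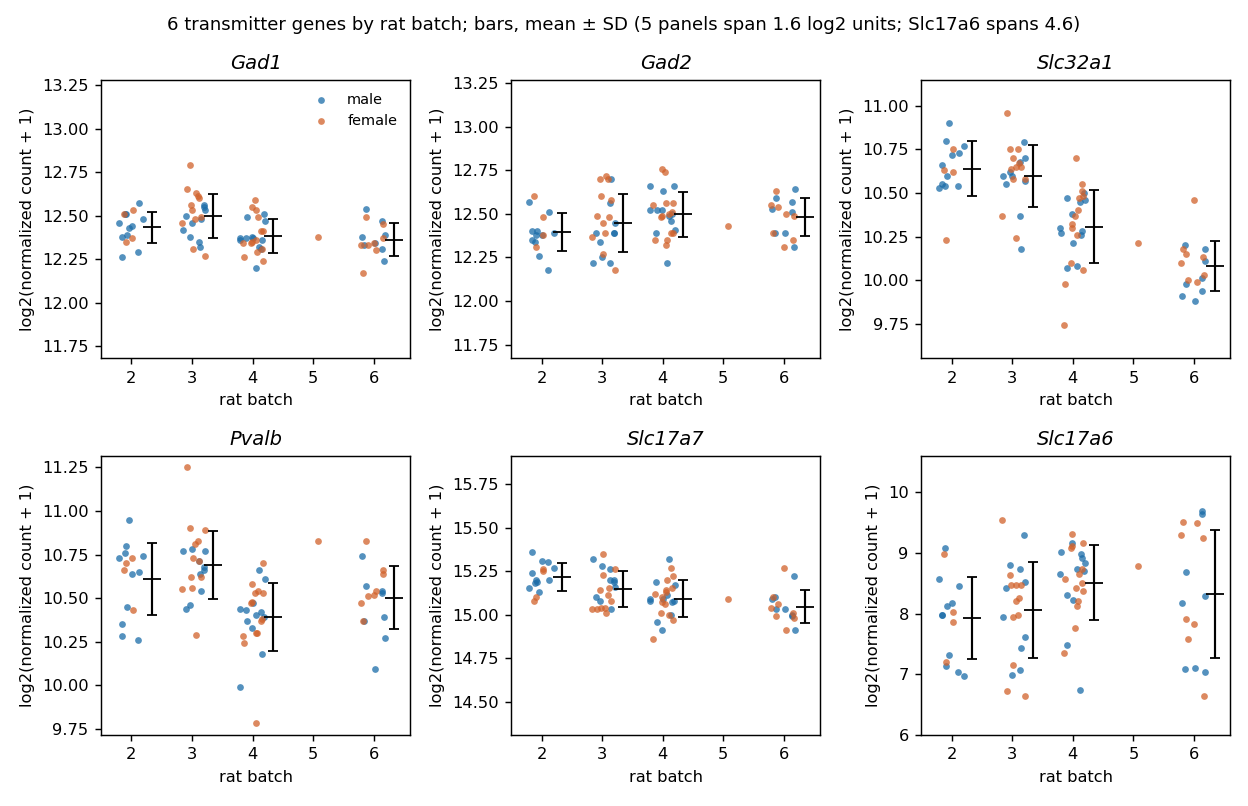
log2(normalized count + 1) of the 6 genes by rat batch; each point is 1 rat, blue for males and orange for females, with the mean and SD of each batch drawn beside the points (batch 5 is 1 rat). Slc32a1 falls from a mean of 10.64 in batch 2 to 10.08 in batch 6, and the Slc17a6 panel has a wider axis than the others.

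The runs of library columns moved with Slc32a1 as closely as the batches did, with 59.6% of its variance. Batch 3 was the batch best split by them. Its 3 rats in the last run had Slc32a1 values of 10.18 to 10.37, against 10.37 to 10.96 in its other 19 rats (log2 difference -0.38, SE 0.08, limma adjusted p = 0.00499), and Gad2 was higher in the 3 rats (0.28, SE 0.08, adjusted p = 0.0362), with 6.98% of all genes called. Between batches 4 and 6, which both lay in the last run, Slc32a1 still differed (-0.22, SE 0.06, adjusted p = 0.00872, 13.7% called). Within the last run, batch 4 and the 3 rats of batch 3 differed by 0.04 (SE 0.12, adjusted p = 0.920), against -0.29 (SE 0.05) between the whole batches, and 0% of all genes were called. With the run as a further term, the F test across batches called 1 of the 6, Slc32a1, whose span shrank from 0.56 to 0.23 (limma adjusted p = 0.00376), and 18.6% of all genes. Batch 2 shared no run with batches 4 and 6, so for those steps run and batch cannot be told apart. Mean depth was 16800000 and 16000000 reads in batches 2 and 3 and 19200000 and 19900000 in batches 4 and 6. With log2 depth as a further term the F test called the same 4 genes, and 10529 of all 17123 genes.

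A factor common to all genes of a library, such as its upper quartile, cancels in the difference between 2 genes of that library. Quantile normalization is not such a factor and can still move these differences. Slc32a1 minus Gad2, the vesicular transporter against a synthetic enzyme of the same transmitter, was -1.76 ± 0.19 in batch 2 and -1.85 ± 0.28 in batch 3, then -2.19 ± 0.22 in batch 4 and finally -2.40 ± 0.21 in batch 6 (log2, SD). In the 3 batch 3 rats of the last run it lay between -2.53 and -2.19, below all the other 19 rats of that batch (-2.00 to -1.53). Gad1 minus Gad2 was 0.04 ± 0.09 and 0.05 ± 0.13 in batches 2 and 3, and -0.11 ± 0.09 and -0.12 ± 0.09 in batches 4 and 6. After quantile normalization Slc32a1 minus Gad2 was -1.74, -1.83, -2.20 and -2.44 in batches 2, 3, 4 and 6, and Gad1 minus Gad2 was 0.04, 0.05, -0.11 and -0.12. Each such difference also carries the lengths of both transcripts, so its change among rats is described and not its level, and no test was made on it.

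The difference between inhibitory and excitatory genes was taken as the mean log2 value of Gad1, Gad2 and Slc32a1 minus that of Slc17a7. It was -3.36 ± 0.14 over the 80 rats and ran from -3.67 to -3.00, a 1.59-fold span. As summed normalized counts, Gad1, Gad2 and Slc32a1 came to between 27.6% and 43.4% of Slc17a7, with a median of 35.1%. These shares were not corrected for transcript length, so they describe the span among rats and not a ratio of transcripts. The batches overlapped widely on this measure, with -3.39 ± 0.12, -3.30 ± 0.17, -3.36 ± 0.13 and -3.41 ± 0.13 in batches 2, 3, 4 and 6, and batch accounted for 7.90% of its variance. The batch means of its members went in opposite directions, which was not tested. Slc32a1 minus Slc17a7 went from -4.58 ± 0.16 and -4.55 ± 0.18 in batches 2 and 3 to -4.79 ± 0.17 and -4.97 ± 0.13 in batches 4 and 6. Gad2 minus Slc17a7 went from -2.82 ± 0.15 and -2.70 ± 0.25 to -2.59 ± 0.18 and -2.57 ± 0.19, and Gad1 minus Slc17a7 stayed between -2.78 and -2.65. After quantile normalization the mean difference was -3.36, -3.24, -3.40 and -3.47 in batches 2, 3, 4 and 6, so that batch 6 minus batch 3 went from -0.10 to -0.23. Sex accounted for 3.67%, with means of -3.39 in males and -3.33 in females. The lowest rats were male 36 of batch 6 (-3.67), male 23 of batch 2 (-3.63) and male 25 of batch 4 (-3.61), and the highest were female 5 (-3.00), female 9 (-3.06) and female 10 (-3.10), all of batch 3. The 3 lowest rats were thus male and the 3 highest female, whereas the means of the sexes lay within 1 SD of each other. Female 5, with the highest difference, also had the highest Slc32a1 (10.96) and Pvalb (11.25) and a Slc17a6 near the bottom (6.73).

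**Figure D3:**
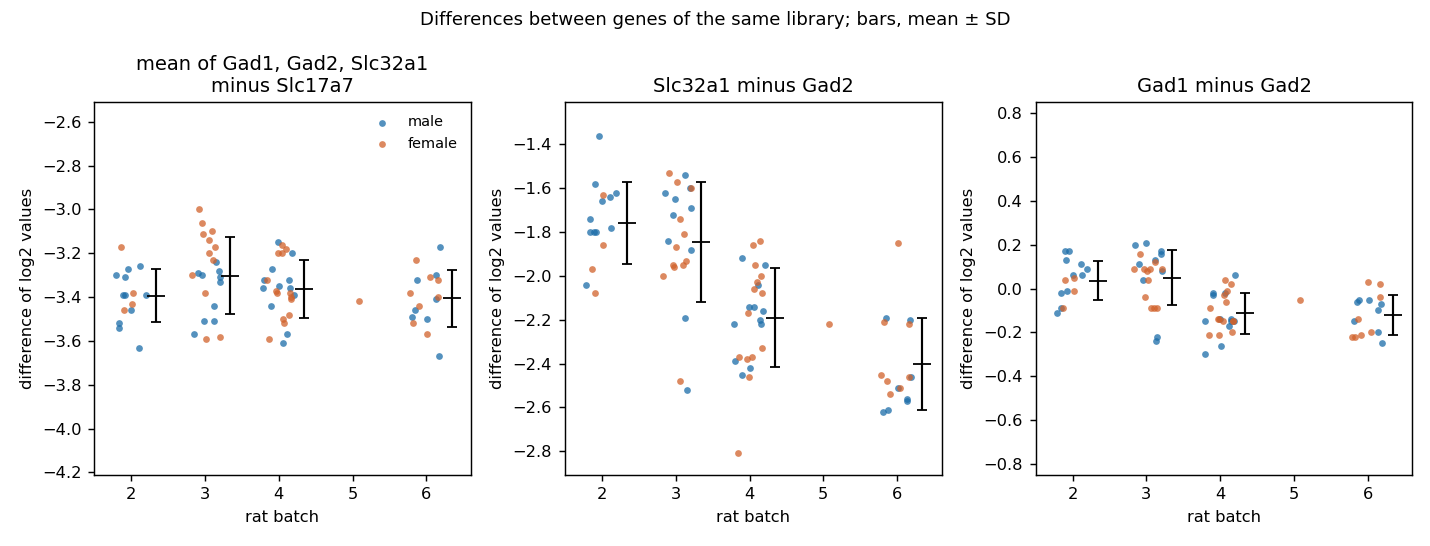
Differences of log2 values between genes of the same library by rat batch: the mean of Gad1, Gad2 and Slc32a1 minus Slc17a7 (left), Slc32a1 minus Gad2 (middle) and Gad1 minus Gad2 (right); points are rats, blue for males and orange for females, with the mean and SD of each batch beside them. The left panel stays near -3.36 in all batches, and Slc32a1 minus Gad2 moves from -1.76 in batch 2 to -2.40 in batch 6.

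Among rats of the same batch and sex, the pairs that varied together lay both within and across the GABA and glutamate genes. Of the 15 pairs, 4 passed by both Pearson's r and Spearman's rho in permutation tests (two-sided, 100000 permutations within batch and sex, Benjamini-Hochberg over the 15 pairs). By rho 7 of the 15 passed, the further ones being Gad1 with Slc32a1, Slc17a7 and Pvalb. Gad1 went against Slc17a7 (r = -0.28, adjusted p = 0.0501, and rho = -0.27, adjusted p = 0.0467). That r was -0.35 (adjusted p = 0.00955) under quantile normalization and -0.25 (adjusted p = 0.0818) with depth removed. With Pvalb, Gad1 had r = 0.20 (adjusted p = 0.203) and rho = 0.28 (adjusted p = 0.0378). Gad1 and Gad2 rose and fell together, with r = 0.65 and rho = 0.61 (adjusted p = 0.00015 in both cases; the raw p of 1e-05 is the smallest these permutations allow), r of 0.61, 0.63, 0.70 and 0.60 within batches 2, 3, 4 and 6, and r = 0.64 without the 2 rats farthest from the median of Gad1. The relation of Gad2 and Slc32a1 did not pass (r = -0.08, adjusted p = 0.640, and rho = -0.06, adjusted p = 0.712), with r of 0.14, -0.33, 0.17 and -0.36 within the batches and -0.10 without the 2 farthest rats. Gad1 and Slc32a1 lay between, at r = 0.27 (adjusted p = 0.0501) and rho = 0.29 (adjusted p = 0.0378), with r of 0.42, 0.21, 0.46 and -0.14 within the batches and 0.23 without the 2 farthest rats. That pair passed with the first principal component of the residuals of all genes removed (r = 0.49, permutation adjusted p = 0.000225) and with sex and batch kept (r = 0.47, adjusted p = 0.0291), and not under quantile normalization (r = 0.16, adjusted p = 0.300).

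Slc17a7 was a partner in the remaining 3 of the pairs that passed by both r and rho. It went against Gad2 (r = -0.46, adjusted p = 0.00055, and rho = -0.43, adjusted p = 0.00175), with r of -0.22, -0.61, -0.23 and -0.70 within batches 2, 3, 4 and 6 and -0.43 without the 2 farthest rats. It also went against Slc17a6 (r = -0.30, adjusted p = 0.0381, and rho = -0.33, adjusted p = 0.0141), with -0.21, -0.32, -0.31 and -0.36 within the batches and -0.31 without the 2 farthest rats. With Slc32a1, a gene of inhibitory neurons, it went the same way (r = 0.44, adjusted p = 0.000525, and rho = 0.40, adjusted p = 0.00175), with 0.18, 0.32, 0.60 and 0.54 within the batches and 0.39 without the 2 farthest rats. This relation between Slc32a1 and Slc17a7 fell to r = 0.15 (adjusted p = 0.300) under quantile normalization and to 0.21 (adjusted p = 0.140) once the same first component was removed. That component, which held 4.55% of the residual variance, went with Slc32a1 (r = 0.69, rho = 0.64, permutation adjusted p = 0.00012 for both, and r = 0.64 without the 2 farthest rats) and with Slc17a7 (r = 0.44, adjusted p = 0.00012, and rho = 0.44, adjusted p = 0.00036, and r = 0.40 without the 2 farthest rats). The pair Slc17a7 and Slc17a6 also passed no longer under quantile normalization (r = -0.23, adjusted p = 0.137). The 1 rat of batch 5 has a deviation of 0 by construction. Gad2 went with the component in the opposite direction (r = -0.35, permutation adjusted p = 0.0140, and rho = -0.33, adjusted p = 0.0189), with r = -0.21 without the 2 farthest rats. Its relation with Slc17a7 was -0.36 once the component was removed. With log2 depth, r ran from -0.21 for Slc17a7 to 0.28 for Gad2 over the 80 rats, and 0 of the 6 genes passed by r, while Gad2 passed by rho (0.31, permutation adjusted p = 0.0430, with r = 0.29 without the 2 farthest rats). These p-values were adjusted over 12 relations, 6 with depth and 6 with the component.

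**Figure D4:**
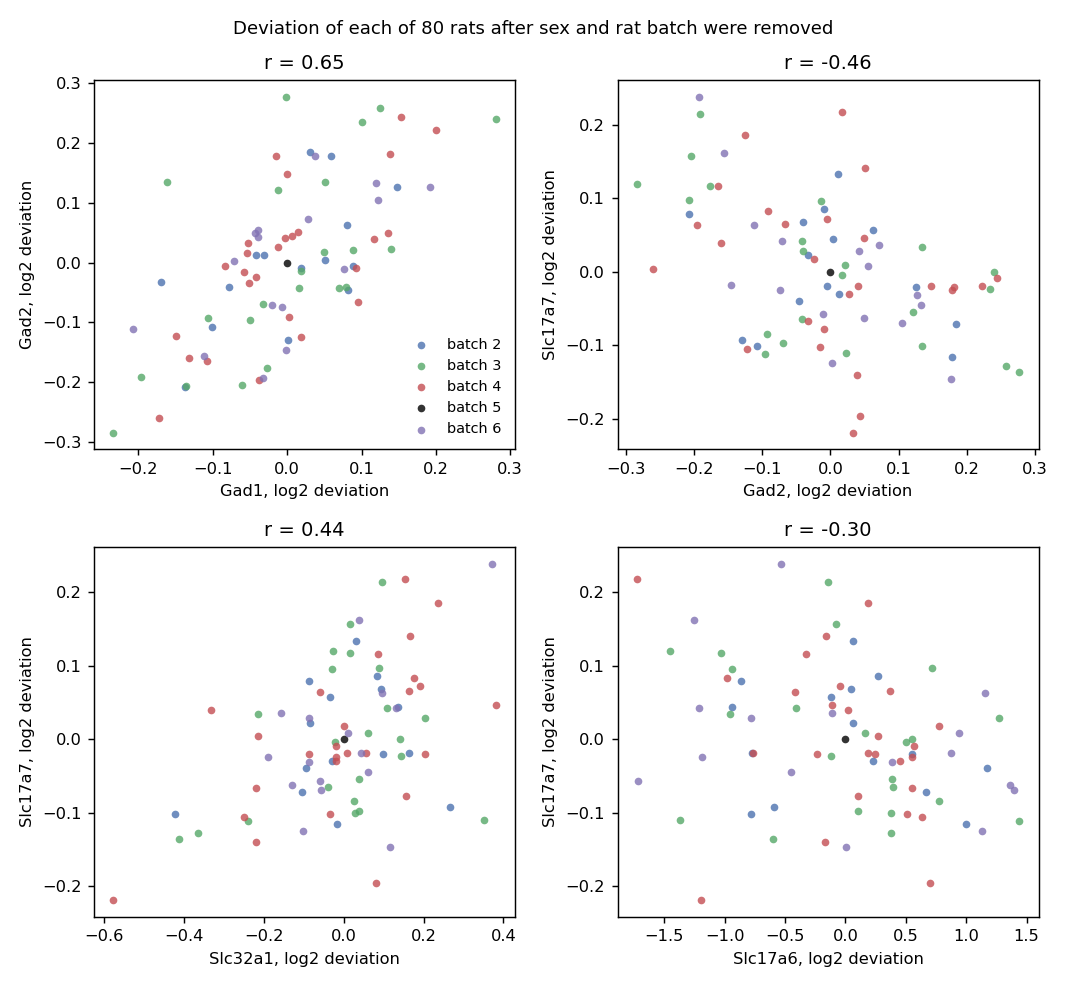
Deviation of each of 80 rats after sex and rat batch were removed as additive terms (log2 units) for the 4 pairs of genes that passed by r and rho; each point is 1 rat, coloured by rat batch. Gad1 and Gad2 rise together (r = 0.65), Slc32a1 and Slc17a7 rise together (r = 0.44), and Slc17a7 falls as Gad2 (r = -0.46) or Slc17a6 (r = -0.30) rises.

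The same deviations were ranked against 14802 other genes as a description of likeness. Gad2 was the gene most like Gad1 of all, with r = 0.65, and Gad1 came at rank 9 for Gad2. Slc32a1 came at rank 698 for Gad1 and rank 9141 for Gad2, and Slc17a7 came at rank 831 for Slc32a1. Slc17a7 lay near the opposite end of the list for both decarboxylases, at rank 14467 for Gad1 and 14507 for Gad2. The gene most like Slc17a7 carried the identifier ENSRNOG00000049944 (r = 0.79). Slc17a6 had the weakest best match of the 6, at r = 0.55, where the other 5 reached 0.65 to 0.79.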

How the data were processed

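RNA-Seq data from the orbitofrontal cortex of 80 rats were analysed, and 8 of 88 labelled samples, marked as removed in the labels, were not analysed here. The authors sequenced polyA RNA as single-end reads, trimmed them with cutadapt, counted genes with RSEM on the Ensembl rat transcriptome (Rnor_6.0 in the submitters' processing notes, tool versions not given in the sources used here), filtered low genes, scaled by the upper quartile with DESeq2 and deposited log2(normalized count + 1) values. Whole numbers of reads were recovered from the spacing of the normalized counts. The step, the normalized count that 1 read stands for, ran from 0.733 to 3.51. In libraries with a step above 1, at least 99.1% of values up to 300 fell on a rounded multiple of it. With a step below 1 every whole value does so by construction, so this check says nothing about those libraries. Depth was 5670000 to 25600000 reads, the reads carry no molecular identifiers, and counting errors cover reads only. In 40 simulated libraries, 39 steps were recovered within 1%.

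Sex (batch as covariate), batch (sex as covariate; batches 2, 3, 4 and 6) and their interaction were fitted on all 17123 genes with limma 3.58.1 in R 4.3.3 (lmFit, eBayes with a mean trend), and p-values were adjusted by Benjamini-Hochberg over all genes with a threshold of 0.05. On simulated data with 200 of 17123 genes changed by 0.5 (log2), 92.5% were recovered for sex and 80.5% for batch. The changed genes were drawn from those above a floor of mean normalized count, and the batch change was placed in batch 6 alone. No other gene differed by sex or batch in the simulation. The shares are over all changed genes, not for a gene as variable as Slc17a6. With voom on recovered reads, 23 genes were called for sex and 10914 for batch. Correlations, residual SDs and permutations used Python 3.11.15, numpy 2.4.6, pandas 2.3.3 and scipy 1.17.1, and figures matplotlib 3.10.9. The 6 genes are named as given with their identifiers, and for likeness the most similar gene by residual correlation was named for at most 2 members. The RefSeq gene table (GRCr8) held 0 Ensembl identifiers, so pathway and cell type lists could not be counted and the tissue was not checked against markers beyond the 6 genes. The members, lists and tests were chosen with earlier results of these data known. Libraries are named by sex and a number in accession order. Alternatives included scaling, pseudocount, filters, depth, array weights, components, single batches and the runs of columns.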

Additional observations from a re-analysis of the deposited data

Results flagged for a closer look

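Over 28 groups of 4 to 10 rats of the same sex and batch (a gene or the inhibitory to excitatory difference in each), 1 library stood apart from its group by the gap to its nearest neighbour; chance alone flags about 1 in 20. This was Slc32a1 in female 14 of batch 6, at 10.46, where the next of the 8 females was at 10.18 and the gap took a share of 0.580 of the group's range (critical value 0.526). The same library had the highest Slc17a7 of batch 6 (15.27), with Gad1 at 12.34 and Gad2 at 12.31. It was the 1 rat of the 16 in batch 6 that was not below the lowest rat of batch 2 in Slc32a1.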

How the results depend on the processing

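No paired analysis was possible because each rat gave a single library and its number is only a name. The sex and interaction tests called 0 of the 6 genes under every alternative run. Sex differences of uncalled genes changed sign in 10 fits: Slc17a6 to 0.79 with 20 components (adjusted p = 0.845) and 0.037 in batch 3 alone, Slc32a1 to 0.022 without a batch term, 0.11 in batch 2 alone, 0.0090 in batch 4 alone and 0.0025 without batch 6, Gad2 to 0.0015 in batch 4 alone and 0.021 in batch 6 alone, Slc17a7 to -0.0035 in batch 4 alone and Gad1 to 0.027 in batch 6 alone. The batch test called 4 of the 6 in the main fit, 0 with 20 components (1 of all genes) and 1 with the run of columns as a term (3178 of all genes), the latter chosen after seeing the data. With the median of all genes set equal, also added later, 4 more differences between batch pairs passed. They were Gad1 between batches 2 and 4, Gad1 and Pvalb between 2 and 6, and Slc17a7 between 3 and 4. These comparisons called 49.2%, 54.6% and 43.3% of all genes, against 48.6%, 53.8% and 42.9% in the main fit. The number of correlated pairs was 4 in the main analysis, 0, 3, 2 and 1 within batches 2, 3, 4 and 6, and 5 with sex and batch kept. It was 3 under quantile normalization. The pairs counted within batch 3 and under quantile normalization were not all among the 4 of the main analysis. Slc32a1 with Pvalb had r of 0.38, 0.69, -0.09 and -0.17 within batches 2, 3, 4 and 6. Gad2 with Slc32a1 turned to 0.14 in batch 2 alone, 0.17 in batch 4 alone and 0.25 with the first component removed, Gad1 with Pvalb to -0.04 in batch 4 alone and Gad1 with Slc32a1 to -0.14 in batch 6 alone. The inhibitory to excitatory difference moved by construction, from -3.36 to -3.67 with Pvalb added, 0.08 with Slc17a6 averaged in, -1.51 as summed counts, -2.70 for Gad1 alone, -2.66 for Gad2 alone and -4.72 for Slc32a1 alone. Its batch 6 minus batch 3 value of -0.10 became 0.00 as summed counts, 0.14 with Gad2 alone, -0.03 with Gad1 alone, -0.42 with Slc32a1 alone, -0.29 with Slc17a6 averaged in and -0.23 after quantile normalization (added later). The median residual SD of the 6 genes went from 0.157 to 0.182 with sex and batch kept, 0.101 with 20 components removed and 0.141 with the run of columns removed. For the other changes the cause was not tested. Slc17a6 had the fewest recovered reads of the 6 genes, from 72 to 1066 per library.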
